A study of Mus musculus with 22 samples.

Results

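Abi3bp, the tensins Tns1, Tns2 and Tns3, and Adamts18 are 5 genes of the extracellular matrix and of cell adhesion, out of 55341 genes counted in striatum of FMRP mutant and wild-type mice. Abi3bp, Tns1 and Adamts18 were picked because their mRNA was lower in the mutant, and Tns2 and Tns3 were added as relatives of Tns1. Their lower level in the mutant is therefore given as a description without a test. Tests were run for Tns2 and Tns3, and for every comparison of pulldown with input in wild-type animals. The choice also used the wild-type levels of Abi3bp, Tns1 and Adamts18, so their wild-type tests are not free of it.

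The mice carried a ribosomal protein fused to EGFP, EGFP-Rpl10a, in medium spiny neurons that express the dopamine receptor Drd1 (D1 neurons), so that ribosomes with their bound mRNA could be pulled down from striatal lysate with antibodies against EGFP. The mutant group (KO) comprised 5 animals labelled FMRP mutant, numbers 2, 3, 9, 10 and 11, and the wild-type group (WT) comprised 6 animals, numbers 1, 4, 12, 13, 14 and 20. All 11 animals carried the tagged ribosomal protein, and each gave a pulldown library (IP) and a library of the input lysate, labelled Total. FMRP is the RNA-binding protein that Fmr1 encodes. The input holds RNA of all striatal cells, and age, sex and strain are not given in the sources used here.

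Levels are given in CPM, counts set against the library's total and scaled for library composition within IP or within input. Totals per library, in units of 1000000 counts, were 13.8 to 49.7 in KO IP, 9.38 to 82.4 in WT IP, 28.4 to 43.3 in KO input and 25.2 to 38.3 in WT input. Fmr1, the targeted gene, averaged 11.6 ± 1.47 CPM in KO IP (SD, n = 5) and 99.8 ± 14.8 CPM in WT IP (SD, n = 6), and the groups did not overlap in either assay. All 10 markers of D1 neurons were higher in IP than in input in both genotypes, by edgeR's quasi-likelihood test with Benjamini-Hochberg adjustment at 0.05. Animals 3 and 9 (KO) and 1 and 12 (WT) stood apart by markers of cortical excitatory neurons, which summed to 181 to 396 CPM in their IP libraries and to 82.2 to 127 CPM in those of the other 7 animals. Values without these 4 animals are given for the genotype fold changes of Abi3bp, Tns1 and Adamts18 and for some other results. The fold changes of the D1 markers are not given without them.

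Cells attach to the surrounding matrix through integrins, receptors that span the membrane and whose inner ends are tied to actin by adaptor proteins. Tensins are such adaptors: they bind the tails of integrin beta subunits and actin, and they gather where cells hold the matrix. Abi3bp is a secreted matrix protein named for its binding to the SH3 domain of Abi3, an adaptor of the Abi family, and Adamts18 belongs to a family of secreted metalloproteases with thrombospondin repeats, several of which cut matrix proteoglycans.

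The start regions shown are those of Tns1 and Adamts18, the chosen genes with an entry in the RefSeq promoter table (GRCm38.p6). That of Tns3, a tensin not called between genotypes, is shown beside them. Each runs from 250 bases before to 50 bases after the annotated start, and capitals mark GC boxes, the letters GGGCGG or their reverse complement CCGCCC.
Tns1 (chr1:74124499-74124798, minus strand): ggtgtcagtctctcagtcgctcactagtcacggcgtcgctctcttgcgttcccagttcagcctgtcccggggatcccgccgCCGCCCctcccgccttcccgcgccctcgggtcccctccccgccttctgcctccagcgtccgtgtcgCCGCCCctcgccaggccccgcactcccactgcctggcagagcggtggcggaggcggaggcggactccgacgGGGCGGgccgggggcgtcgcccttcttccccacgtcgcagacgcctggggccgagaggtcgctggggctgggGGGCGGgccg
Adamts18 (chr8:113848790-113849089, minus strand): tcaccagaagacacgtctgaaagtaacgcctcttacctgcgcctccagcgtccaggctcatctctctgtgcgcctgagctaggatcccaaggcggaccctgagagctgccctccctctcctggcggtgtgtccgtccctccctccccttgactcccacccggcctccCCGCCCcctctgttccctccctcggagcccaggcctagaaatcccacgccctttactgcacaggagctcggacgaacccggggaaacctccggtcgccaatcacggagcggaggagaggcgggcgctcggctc
Tns3 (chr11:8664486-8664785, minus strand): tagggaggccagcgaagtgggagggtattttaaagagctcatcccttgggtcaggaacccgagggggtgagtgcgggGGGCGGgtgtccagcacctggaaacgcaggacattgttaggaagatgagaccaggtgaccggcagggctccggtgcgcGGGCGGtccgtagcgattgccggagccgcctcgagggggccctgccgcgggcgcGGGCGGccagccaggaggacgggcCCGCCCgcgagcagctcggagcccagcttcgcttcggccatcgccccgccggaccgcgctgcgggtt
The table held 4 of the 5 genes. Tns1 had 4 GC boxes, 37 CG pairs and 75.7% G or C, Tns3 had 4 GC boxes, 33 CG pairs and 70.7%, and Adamts18 had 1 GC box, 22 CG pairs and 66.0%. Tns2 had no GC box, 2 CG pairs and 63.7%. Over all 32851 promoters in the table, GGGCGG on either strand stood in 35.7%, and the medians were 7 CG pairs and 52.7% G or C. The TATA box letters TATAAA stood in 13.6% of all promoters on either strand, the E box letters CACGTG in 7.15% and the cAMP response element core, TGACG, in 20.8%. None of these 3 motifs stood in the 4 windows, so no motif overlapped another. Among the tensin windows, GC boxes stood in those of Tns1 and Tns3 but not in that of Tns2. The Tns2 window, chr15:102102684-102102983, lies inside the gene as annotated in GENCODE vM21, which begins at 102100413. The region at that outer start was not examined, so the contrast holds only for the listed starts. A link of these start regions to the genotype difference was not tested.

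Abi3bp (ENSMUSG00000035258.15) lies on chr16:56477878-56690135, plus strand, in the GENCODE vM21 annotation of GRCm38/mm10, and its exons cover 7416 bases together. In KO IP it stood at 16.2, 15.8, 18.9, 9.56 and 17.2 CPM in animals 2, 3, 9, 10 and 11, against a lowest value of 32.6, a median of 45.7 and a highest of 51.8 CPM in WT IP. The highest KO library lay below the lowest WT library, which came from animal 1. In KO input the values were 9.37, 9.91, 6.88, 7.86 and 9.26 CPM in the same order of animals, against a lowest of 20.7, a median of 24.2 and a highest of 30.4 CPM in WT input. There too the groups did not overlap, and the mean in the mutant was 35.3% of that in wild type in either assay. The log2 fold change of KO over WT was -1.50 ± 0.16 (SE) in IP and -1.50 ± 0.14 in input. Each IP library held 239 to 808 Abi3bp reads in KO and 417 to 2723 in WT, so the gap did not rest on a few reads. Leaving out animals 1, 3, 9 and 12 gave -1.72 ± 0.19 in IP and -1.45 ± 0.17 in input.

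Tns1 (ENSMUSG00000055322.15), the tensin with the highest IP level per length in wild type, lies on chr1:73910231-74124449, minus strand, with 16010 exon bases. In KO IP it stood at 23.8, 15.2, 23.4, 20.9 and 28.1 CPM in animals 2, 3, 9, 10 and 11, against a lowest of 44.0, a median of 57.7 and a highest of 65.2 CPM in WT IP. In KO input it stood at 15.4, 10.9, 8.72, 11.9 and 13.2 CPM, against a lowest of 20.4, a median of 22.4 and a highest of 26.7 CPM in WT input. No KO library reached any WT library in either assay. The KO mean was 40.3% of the WT mean in IP and 52.7% in input, and the log2 fold changes of KO over WT were -1.31 ± 0.14 (SE) and -0.92 ± 0.14. Without animals 1, 3, 9 and 12 they were -1.25 ± 0.15 in IP and -0.81 ± 0.15 in input.

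Adamts18 (ENSMUSG00000053399.9), on chr8:113697126-113848738, minus strand, with 10178 exon bases, was far less abundant than the other chosen genes. In KO IP it stood at 0.120, 0.298, 0.0846, 0.168 and 0.289 CPM in animals 2, 3, 9, 10 and 11, against a lowest of 1.28, a median of 1.49 and a highest of 2.0 CPM in WT IP. These values come from 2 to 6 reads in each KO library, 23 in all, and from 12 to 139 reads in each WT library, 314 in all, so counting error alone is large in KO. The IP groups did not overlap, and the KO mean was 12.5% of the WT mean. In KO input it stood at 0.181, 1.33, 0.511, 1.27 and 0.101 CPM, against a lowest of 0.724, a median of 1.23 and a highest of 1.47 CPM in WT input. Here KO animals 3 and 10 lay within the WT range and the other 3 lay below it, so the input groups overlapped. The log2 fold change of KO over WT was -3.04 ± 0.53 (SE) in IP and -0.81 ± 0.57 in input. Without animals 1, 3, 9 and 12 it was -3.10 ± 0.69 in IP and -1.08 ± 0.81 in input. The input value moved with single libraries, to -0.52 without KO animal 11 and to -1.24 without KO animal 3, and it was -1.56 with limma-voom.

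**Figure D1:**
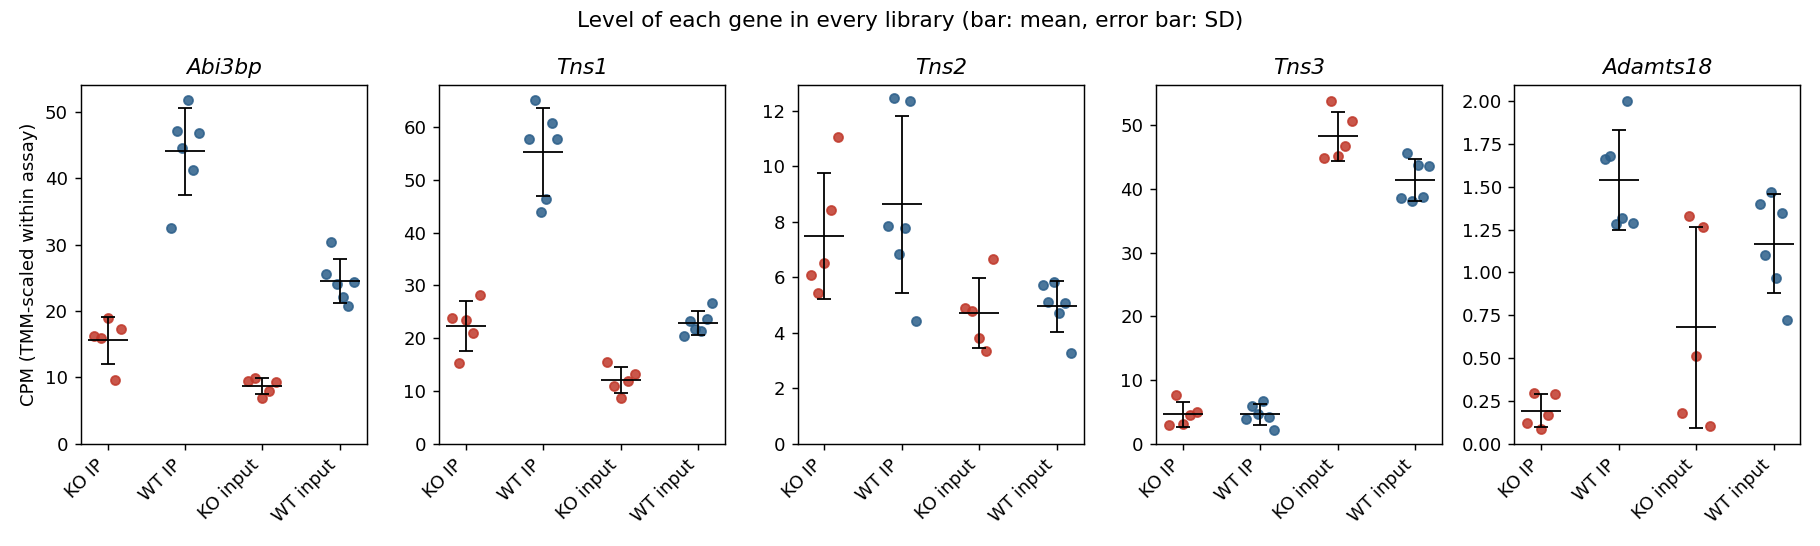
Levels of the 5 genes in CPM on linear axes that start at 0 and differ between genes, one point per library, with KO left of WT in IP and in input, bars at the group means and error bars of 1 SD. KO and WT points are apart for Abi3bp and Tns1 in both assays and for Adamts18 in IP, and mixed for Tns2 and for Tns3 in IP.

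Tns2 (ENSMUSG00000037003.16), a tensin with a C1 domain and known for its role in kidney podocytes, lies on chr15:102100413-102116401, plus strand. In KO IP it stood at 6.06, 5.41, 6.52, 8.42 and 11 CPM in animals 2, 3, 9, 10 and 11, against a lowest of 4.41, a median of 7.82 and a highest of 12.5 CPM in WT IP. In KO input it stood at 4.90, 4.79, 3.81, 3.35 and 6.65 CPM, against a lowest of 3.27, a median of 5.09 and a highest of 5.81 CPM in WT input. The groups overlapped in both assays. The log2 fold change of KO over WT was -0.21 ± 0.26 (SE) in IP, with a 95% interval of -0.76 to 0.33 and adjusted p = 0.913 by edgeR's quasi-likelihood test over all genes. In input it was -0.07 ± 0.22, with an interval of -0.53 to 0.39 and adjusted p = 0.977 by the same test. Both intervals exclude a fall in Tns2 as large as the fold changes measured for Tns1, but they do not show that Tns2 was unaltered.

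Tns3 (ENSMUSG00000020422.13), a tensin known from work on oligodendrocyte differentiation and on cell migration, lies on chr11:8431652-8664535, minus strand. In KO IP it stood at 2.85, 7.55, 3.0, 4.45 and 4.98 CPM in animals 2, 3, 9, 10 and 11, against a lowest of 2.07, a median of 4.45 and a highest of 6.73 CPM in WT IP. In KO input it stood at 44.9, 53.8, 45.2, 46.8 and 50.7 CPM, against a lowest of 38.2, a median of 41.2 and a highest of 45.7 CPM in WT input. The IP groups overlapped throughout, and in input the lower KO libraries lay within the upper WT range. The log2 fold change of KO over WT in IP was -0.01 ± 0.32 (SE), with a 95% interval of -0.67 to 0.66 and adjusted p = 0.999 by edgeR's quasi-likelihood test. In input it was 0.22 ± 0.09, with an interval of 0.04 to 0.40 and adjusted p = 0.635 by edgeR's quasi-likelihood test, which did not pass 0.05. Tns4, the remaining family member, had at most 5 reads in any KO library and at most 32 in any WT library, and it was not tested.

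Of the 5 genes, 3 were called lower in KO IP than in WT IP at an adjusted p of 0.05, when 0.0553% of the 14456 genes tested were called, all of them lower. In input 2 of the 5 were called, when 0.0183% of 16429 genes were. Groups that did not overlap, with KO lower, were found for 3 of the 5 in IP, where 0.609% of genes showed this, and for 2 of the 5 in input, where 0.396% did. No member lay wholly above WT, as 0.36% of genes in IP and 0.237% in input did. Since the 3 genes were picked for this difference, nothing is read from these counts. With each of the 11 animals left out in turn, the log2 fold change of Abi3bp spanned -1.58 to -1.38 in IP and -1.55 to -1.42 in input, and that of Tns1 spanned -1.41 to -1.21 in IP and -1.03 to -0.82 in input. Some of the calls counted above depend on single animals. The Tns1 call in input ended without KO animal 3 or 10, without WT animal 4 or 14, and without animals 1, 3, 9 and 12 together. The Adamts18 call in IP ended in 10 of the 11 fits, all but the one without WT animal 20. It also ended with no filter on low counts, with limma-voom and without animals 1, 3, 9 and 12, and DESeq2 gave it no adjusted p. In the authors' deposited table, whose fold changes run wild type over mutant and so have the opposite sign, the unshrunken log2 values in IP were 1.51 for Abi3bp, 1.32 for Tns1 and 3.13 for Adamts18, and the shrunken value for Adamts18 was 0.70.

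In bulk libraries, fewer cells of a type and less RNA per cell cannot be told apart. Markers of D1 neurons summed to 642 to 903 CPM in KO input and 801 to 1092 CPM in WT input, and to 2618 to 2833 CPM in KO IP and 2449 to 3157 CPM in WT IP. Markers of mural cells and fibroblasts, 15 genes, summed to 4.88 to 24.1 CPM in KO IP and 11.8 to 22.9 CPM in WT IP, and to 56.1 to 87.9 CPM in KO input and 64.9 to 75.9 CPM in WT input. The ranges of these sums overlapped in each case, and no marker of either list was at 0 in all libraries. The single D1 markers nevertheless leaned one way in input, where 10 of 10 had a negative log2 fold change of KO over WT, with a median of -0.27 against 0.00 over all genes. In IP 7 of 10 were negative, with a median of -0.08. None of the D1 markers was called between genotypes by edgeR's quasi-likelihood test or limma-voom, 2 in IP and 3 in input had an unadjusted p under 0.05, and DESeq2 called Zfp521, a zinc finger gene, in both assays. Zfp521 stood at 32.7 ± 3.97 CPM in KO IP and 47.4 ± 7.69 CPM in WT IP, and at 17.6 ± 1.42 CPM in KO input and 24.0 ± 1.47 CPM in WT input (SD, n = 5 and 6). It was named after its values were seen. Of the mural and fibroblast markers, 6 were tested in IP and 15 in input, none was called by edgeR, DESeq2 or limma-voom, and 1 in IP and 0 in input had an unadjusted p under 0.05. The part of both lists in the lower levels of Abi3bp, Tns1 and Adamts18 was not tested.

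IP was set against input to show how much of each mRNA was on the tagged ribosomes of D1 neurons relative to the whole striatum. In wild type, Tns1 rose in IP by a log2 fold change of 0.86 ± 0.14 over input (SE, adjusted p = 6.77e-06 by edgeR's quasi-likelihood test), and its ratio was above 0 on the log2 scale in 6 of 6 animals. Abi3bp rose by 0.43 ± 0.14 (adjusted p = 0.0112 by the same edgeR test) and was above 0 in 5 of 6 animals, with animal 1 at -0.04. Without WT animal 13, the highest of the 6, the Abi3bp value was 0.34 and its adjusted p 0.0695 by edgeR. Of the 17311 genes tested, 49.6% were called in wild type, 21.8% higher and 27.8% lower in IP. The 2 of 5 members called higher and 1 of 5 called lower are too few to set apart from these shares. The wild-type levels of Abi3bp and Tns1 also entered the choice of genes, so their adjusted p-values are not free of it.

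Tns3 fell to 4.58 ± 1.65 CPM in WT IP, against 41.4 ± 3.30 CPM in WT input (SD, n = 6), each scaled within its assay. Its log2 fold change over input, scaled over all 22 libraries, was -3.60 ± 0.22 (SE, adjusted p = 1.64e-12 by edgeR's quasi-likelihood test), and its ratio was below 0 in all 6 animals, between -4.78 and -3.08. In the mutant, where 47.3% of genes were called, 26.4% lower and 20.9% higher, it was -3.85 ± 0.25 (adjusted p = 4.28e-12 by the same edgeR test). The 14 oligodendrocyte markers were all lower in IP too, their medians being -5.03 on the log2 scale in the mutant and -4.92 in wild type. Every other cell list outside D1 neurons also had a negative median in wild type. It was -3.74 for astrocytes, -3.72 for neurons marked by Drd2, -4.29 for interneurons and -5.06 for microglia. For cortical excitatory neurons it was -0.56, and for D1 neurons 1.28. The part of any of these cells in the Tns3 value was not tested. Tns2 had a log2 fold change over input of 0.39 ± 0.24 in wild type (95% interval -0.10 to 0.88, adjusted p = 0.179 by edgeR) and of 0.24 ± 0.26 in the mutant (adjusted p = 0.486 by edgeR), and neither passed 0.05. Adamts18 had -0.01 ± 0.49 in wild type (95% interval -1.02 to 1.00, adjusted p = 0.989 by edgeR), a wide interval at these read numbers.

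In the mutant, the log2 ratios of IP over input of the chosen genes are given as a description. Abi3bp had 0.41 ± 0.16 (SE), above 0 in 4 of 5 animals, but 0.26 ± 0.16 without KO animal 9 and 0.26 ± 0.19 without animals 1, 3, 9 and 12. Tns1 had 0.46 ± 0.15, above 0 in 5 of 5. Adamts18 had -2.26 ± 0.60, and its animals were spread widely, at -0.71, -2.31, -2.27, -2.87 and 0.78 in animals 2, 3, 9, 10 and 11. These ratios of single animals used a prior count of 2, which draws ratios of few reads toward 0, and animal 11 had 4 Adamts18 reads in either library. KO animals 3 and 10, which kept a wild-type level of Adamts18 in input, were among the lowest in IP over input. Input is the denominator of this ratio, and every KO IP library held only 2 to 6 Adamts18 reads. The order of the animals thus follows largely from their input levels. The ratio in the mutant minus that in wild type was -2.25 ± 0.77 for Adamts18, -0.40 ± 0.20 for Tns1 and -0.02 ± 0.21 for Abi3bp. For the genes not chosen by level it was -0.15 ± 0.35 for Tns2 and -0.25 ± 0.31 for Tns3. Over all genes this difference was called for 0 of 17311 by edgeR's quasi-likelihood test, with 710 at an unadjusted p under 0.05, for 5 by DESeq2 and for 0 by limma-voom.

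**Figure D2:**
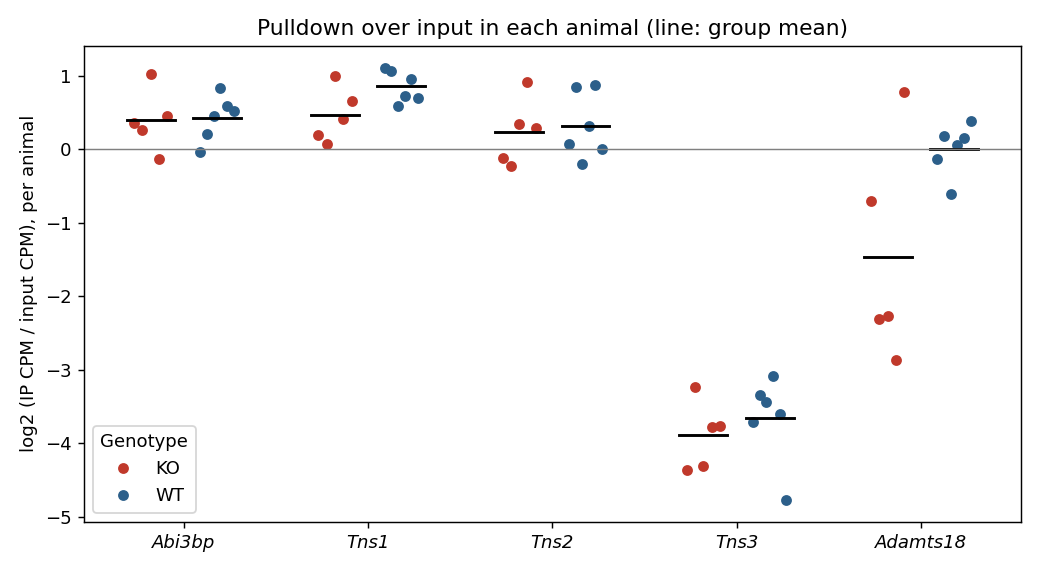
Log2 ratio of IP over input of each animal for the 5 genes, KO left of WT, from CPM scaled over all 22 libraries with a prior count of 2. Tns3 lies between -4.78 and -3.08 in WT, Tns1 above 0 in every animal, and Adamts18 in KO spreads from -2.87 to 0.78.

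Per kilobase of exon, Abi3bp had the highest level of the 5 in IP, at 2.10 ± 0.48 CPM per kb in KO and 5.94 ± 0.89 in WT (SD, n = 5 and 6). In WT IP the order went on with Tns1 at 3.45 ± 0.52, Tns2 at 1.58 ± 0.59, Tns3 at 0.409 ± 0.148 and Adamts18 at 0.151 ± 0.029 CPM per kb, with each step wider than the SDs. In KO IP Tns1 at 1.39 ± 0.29 and Tns2 at 1.37 ± 0.42 CPM per kb did not differ beyond their spread, with Tns3 at 0.408 ± 0.170 and Adamts18 at 0.0189 ± 0.0096 below them. In input Tns3 led, at 4.32 ± 0.34 CPM per kb in KO and 3.71 ± 0.30 in WT, and in WT input Abi3bp followed at 3.31 ± 0.45, a gap smaller than the sum of the SDs. In KO input Abi3bp followed at 1.17 ± 0.17, then Tns2 at 0.862 ± 0.233 and Tns1 at 0.751 ± 0.156, which did not differ beyond their spread and change places when the longest transcript is taken as the length.

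The 3 tensins thus made up different parts of the family's mRNA in the groups, as shares of their summed CPM per kb. Tns1 took 44.0% ± 6.69 in KO IP and 64.0% ± 7.70 in WT IP (SD, n = 5 and 6), and 12.7% ± 2.44 in KO input and 23.6% ± 2.03 in WT input. Tns2 took 42.6% ± 4.76 in KO IP and 28.4% ± 6.15 in WT IP, and Tns3 took 13.3% ± 7.07 and 7.61% ± 2.92 there. In input Tns3 held most of the sum, 73.0% ± 3.96 in KO and 61.3% ± 2.41 in WT. The shares sum to a whole, so the lower Tns1 level in the mutant raises the shares of the other tensins by construction.

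**Figure D3:**
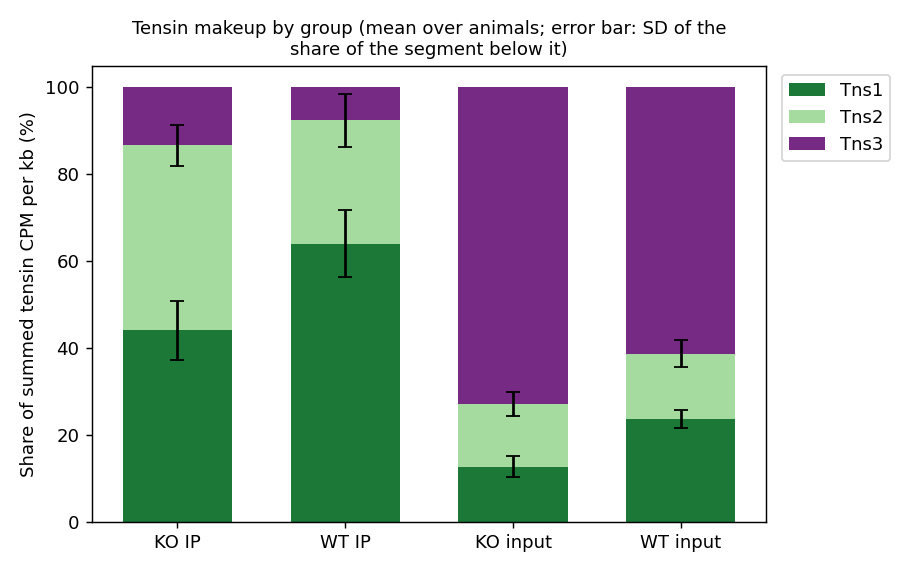
Makeup of the tensin mRNA as shares of summed CPM per kb of exon, in KO IP, WT IP, KO input and WT input, as stacked group means with error bars of 1 SD of the share of the Tns1 or Tns2 segment below them. Tns1 is the largest share in WT IP, at 64.0%, and Tns3 in input, at 73.0% in KO and 61.3% in WT.

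The genes around these 5 in their pathway were read from lists. Of the integrins, 26 genes, 14 passed the filter on low counts in IP and 18 in input, and none was called between genotypes. Over all genes tested, 7.62% in IP and 6.84% in input had an unadjusted p under 0.05, the shares against which such counts are given here. The median log2 fold change of the integrins, KO over WT, was -0.07 in IP and 0.04 in input, against a median of 0.00 over all genes tested in each assay. Itga5, the alpha subunit of a fibronectin receptor, had -0.43 ± 0.21 in IP (SE, adjusted p = 0.671 by edgeR) and -0.35 ± 0.18 in input (adjusted p = 0.766 by edgeR). Itgb4, a laminin receptor subunit, had -1.78 ± 0.89 in IP (adjusted p = 0.674 by edgeR), and Itga8 had 1.82 ± 0.75 in input (adjusted p = 0.655 by edgeR), both at low levels. Of the adaptors that link integrins to actin, 50 genes, 43 passed in IP and 48 in input, none was called, and the medians were -0.12 and -0.04. Tln2, a talin that binds integrin tails as tensins do, stood at 275.7 ± 16.8 CPM in KO IP and 320.1 ± 23.6 CPM in WT IP (SD). Its log2 fold change was -0.21 ± 0.07 in IP (SE, adjusted p = 0.428 by edgeR) and -0.22 ± 0.07 in input (adjusted p = 0.543 by edgeR), so it did not pass. Actn2, an actinin, had -0.34 ± 0.11 in input (adjusted p = 0.509 by edgeR). At an unadjusted p under 0.05 there were 0 of 14 integrins and 8 of 43 adaptors in IP, against 7.62% of all genes, and 1 of 18 integrins and 2 of 48 adaptors in input, against 6.84%. Neither DESeq2 nor limma-voom called any of them.

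Abi3, the partner that gives Abi3bp its name, and the WAVE complex, which drives branched actin and which holds Cyfip1 or Cyfip2, known partners of FMRP, made a list of 14 genes, of which 13 were tested in IP and 14 in input. None was called by edgeR's quasi-likelihood test, 2 of 13 in IP and 3 of 14 in input had an unadjusted p under 0.05, against 7.62% and 6.84% of all genes, and the medians were -0.05 and -0.07. Nckap1, a scaffold subunit of the complex, stood at 1359 ± 97.6 CPM in KO IP and 1650 ± 124 CPM in WT IP (SD). Its log2 fold change was -0.28 ± 0.06 in IP (SE, adjusted p = 0.176 by edgeR) and -0.33 ± 0.08 in input (adjusted p = 0.366 by edgeR), and of the list it was the one gene that DESeq2 called, in IP, while limma-voom called none. Cyfip2 had -0.19 ± 0.06 in IP (adjusted p = 0.388 by edgeR) and Abi2 had -0.18 ± 0.08 in input (adjusted p = 0.685 by edgeR). Abi3 itself was not tested between genotypes in IP, and in input it had 0.55 ± 0.43 (SE, adjusted p = 0.874 by edgeR). Abi3 fell to 0.109 ± 0.106 CPM in WT IP, against 1.05 ± 0.607 CPM in WT input, each scaled over all 22 libraries. That is -3.18 ± 0.69 on the log2 scale (SE, adjusted p = 0.00037 by edgeR).

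The ADAMTS proteases and the related ADAMTS-like proteins made a list of 25 genes, 24 of them in the files. Beside Adamts18, 12 were tested in IP and 17 in input, none was called by edgeR, DESeq2 or limma-voom, and the medians were -0.24 and -0.04. An unadjusted p under 0.05 was found for 2 of 12 in IP and 2 of 17 in input, against 7.62% and 6.84% of all genes. In input Adamts3, which processes procollagen and reelin, had a log2 fold change of KO over WT of -0.28 ± 0.12 (SE, adjusted p = 0.682 by edgeR) and Adamts1, which cuts proteoglycans, had -0.71 ± 0.32 (adjusted p = 0.685 by edgeR). Of 67 matrix genes, 41 were tested in IP and 58 in input, none was called, and the medians were -0.20 and -0.12. Reln, reelin, a secreted matrix glycoprotein, stood at 212.8 ± 23.5 CPM in KO IP and 298.3 ± 46.5 CPM in WT IP (SD), with a log2 fold change of -0.49 ± 0.10 in IP (SE, adjusted p = 0.130 by edgeR) and -0.55 ± 0.12 in input (adjusted p = 0.276 by edgeR). DESeq2 called Reln in both assays and limma-voom in neither. Ncan, neurocan, a brain proteoglycan, had -0.31 ± 0.09 in IP (adjusted p = 0.301 by edgeR), and Lamb1, a laminin chain, had -0.39 ± 0.13 in input (adjusted p = 0.543 by edgeR). At an unadjusted p under 0.05 there were 6 of 41 matrix genes in IP and 4 of 58 in input, against the same shares of all genes.

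**Figure D4:**
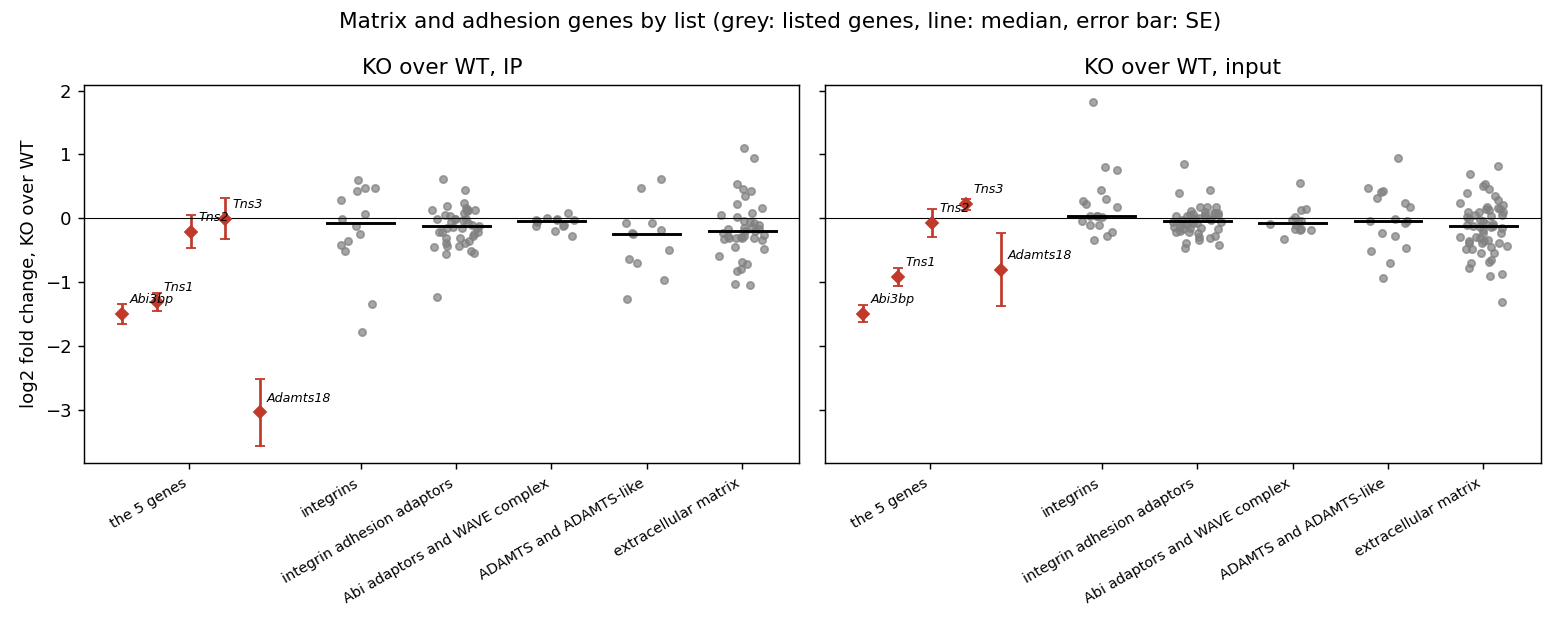
Log2 fold change of KO over WT in IP and in input for the 5 genes (red, with SE) and for every tested gene of 5 lists (grey, bar at the median). Abi3bp is at -1.50, Tns1 at -1.31 and Adamts18 at -3.04 in IP, where the list medians lie between -0.24 and -0.05. These 3 genes were chosen for being lower in the mutant, so their place below the medians follows from the choice. Single listed genes reach as low, such as the integrin Itgb4 at -1.78 in IP.

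IP over input in wild type was read for the same lists, beside 21.8% of all genes higher and 27.8% lower. The median log2 fold changes were -0.88 for integrins, -0.83 for adaptors and -1.0 for matrix genes, and 0.35 for the Abi and WAVE list. No test compared the lists. Of the 19 ADAMTS genes tested beside Adamts18, 1 rose and 10 fell, and their median was -1.64 on the log2 scale, against -0.11 over all genes. Adamts3 rose by 0.80 on the log2 scale, to 49.9 ± 5.59 CPM in WT IP, against 28.7 ± 2.65 CPM in WT input (SD, n = 6), whereas Adamts4, an aggrecan-cutting protease, fell by 4.86 and Adamtsl4 by 4.74. Of 61 matrix genes 7 rose and 23 fell, with Reln at 1.20 and Col6a2, a collagen chain, at 1.11 among the higher and Vtn, vitronectin, at -5.25 among the lower. Matn4, matrilin, held 0.00777 ± 0.0190 CPM in WT IP and 0.398 ± 0.298 CPM in WT input (SD), too few reads in IP for a fold. Of 20 integrins 2 rose, Itga9 at 0.49 and Itgav at 0.44, and 10 fell, Itgam and Itgb2 of the leukocyte integrins the most, at -5.40 and -4.58. Of 48 adaptors 11 rose and 24 fell, with Tln2 at 1.08, Actn1 at 0.81, Sorbs3 at -4.40 and Parvg at -4.01. Of 14 genes of the Abi and WAVE list 8 rose, Cyfip2 by 0.98 and Wasf1 by 0.94, and 5 fell, Abi3 and Wasf2 the most, Wasf2 at -1.10. Itgb2, Adamtsl4, Vtn, Parvg and Abi3 averaged 0.0307, 0.0831, 0.0883, 0.0965 and 0.109 CPM in WT IP. Their folds rest on few IP reads, so the size and order of these folds are uncertain.

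Genes whose profiles over the 11 IP libraries were nearest to each member were found by the root mean square difference of standardised log2 CPM. The search began with the 12646 genes at a mean of at least 1 CPM, plus the members at any level. Predicted genes without a name were then left out. Abi3bp, Tns1 and Adamts18 had Fmr1 as their nearest gene, at 0.365, 0.412 and 0.285, which follows in part from the choice of genes that were lower in the mutant. Next to Abi3bp came Wwc2 at 0.370, Lrrc8b, a subunit of the volume-regulated anion channel, at 0.412 and Papln, papilin, a matrix protein related to the ADAMTS family, at 0.427. Papln stood at 0.274 ± 0.176 CPM in KO IP and 1.80 ± 0.760 CPM in WT IP (SD). Next to Tns1 came Nckap1 at 0.417, Nup214 at 0.434, Ddx6 at 0.438 and Wwc2 at 0.447. Next to Adamts18 came Kif26b, a kinesin, at 0.354, Fibcd1 at 0.364, Isg15 at 0.403 and Zfp646 at 0.422. Among the members the distances were 0.481 between Abi3bp and Tns1, 0.481 between Abi3bp and Adamts18 and 0.449 between Tns1 and Adamts18. These distances, and those of Tns1 from Tns2 and Tns3, follow in part from the same choice of genes. Tns1 was at 1.14 from Tns2 and 1.52 from Tns3. Tns2, whose nearest gene was Glrx2 at 0.545, had no gene as near as Tns3 had in Cept1, at 0.353. After these came Cchcr1 at 0.560 and Fam50a at 0.574 for Tns2, and Atraid at 0.389 and Cdca4 at 0.416 for Tns3.

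The 5 genes have long coding sequences. The choice did not use length itself, but Tns2 and Tns3 were added as relatives of Tns1. The shared length is therefore not free of the choice. The longest coding transcript had 4911 coding bases in Abi3bp, 5664 in Tns1, 4221 in Tns2, 4320 in Tns3 and 3657 in Adamts18, at or above the 90.4 percentile of 12496 tested coding genes, whose median was 1437. Tns2 and Tns3 lay between Adamts18 and Abi3bp in coding length. A link of coding length to the genotype difference was not tested. The short motifs AGGA and TGGA, reported in FMRP-bound RNA, occurred 8.14 times per coding kilobase in Abi3bp, at the 3.82 percentile, 13.4 times in Tns1, 13.5 in Tns2, 14.8 in Tns3 and 15.6 in Adamts18, against a median of 16.3. The motifs GACA and GACG, counted in the same way, occurred 6.52 times per coding kilobase in Abi3bp, 6.36 in Tns1, 7.34 in Tns2, 8.33 in Tns3 and 9.02 in Adamts18, against a median of 7.33. All 5 genes lay below the median for the first pair of motifs, but only Abi3bp and Tns1 did for the second.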

How the data were processed

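Striatal IP and input RNA of 5 KO and 6 WT animals was sequenced in a single batch from libraries that do not mark strand, per the labels' protocols. The authors deposited raw counts per gene for 22 libraries, made with STAR and featureCounts on mm10 with no version stated, per the submitters' processing notes. The authors also deposited log2 fold changes, wild type over mutant by the sign of Fmr1, with p-values and adjusted p-values from DESeq2, quoted only where named.

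The members and lists were chosen with earlier results of these data known. KO was compared with WT within each assay, and IP with input over all 22 libraries in 4 groups. Each model was an edgeR 4.0.16 quasi-likelihood fit (R 4.3.3, robust, TMM) after filterByExpr, with Benjamini-Hochberg adjustment across every tested gene and a threshold of 0.05, and all adjusted p-values come from it unless another tool is named. All 5 members passed the filter in each fit. Of the fits, only KO against WT in IP was also run on simulated counts, and its outcome is not given here. CPM was TMM-scaled within an assay, and log2 CPM had a prior count of 2. Positions and lengths came from GENCODE vM21, in which no exon base of a member overlapped another gene. Total counts limit precision most for Adamts18, and intervals of fits are 95%.

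Named were the members, Fmr1, list genes called or, if none, the 2 with the smallest p, the 2 called members of each list with the largest fold in each direction for IP over input, and the nearest profiles, except 1 list gene that is not reported here. The labels tie each IP to the input of the same lysate, and the samples were paired by animal number on that ground. Deviations of the 2 libraries of an animal correlated at 0.191 to 0.465 over 8625 genes. Libraries of different animals were not compared in this way. Alternatives were DESeq2 1.42.0, limma-voom 3.58.1, RLE scaling, other filters, leaving out each animal, leaving out animals 1, 3, 9 and 12, and the animal as a block.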

Additional observations from a re-analysis of the deposited data

How the results depend on the processing

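KO against WT in IP called 8 genes, but 75 with DESeq2, 5 with limma-voom and 4 to 8 when each animal was left out. KO against WT in input called 3, but 5 with no filter on low counts, 28 with DESeq2, 7 without animals 1, 3, 9 and 12, and 2 to 7 when each animal was left out, with 7 without animal 12. The interaction called 0 genes, but 5 with DESeq2 and 0 to 2 when each animal was left out, with 2 without animal 1 or 3. The cause was not tested. Signs turned for values near 0: Tns3 in IP spanned -0.27 to 0.14 and Tns2 in input -0.22 to 0.0333 over animals left out, and Tns2 in input was 0.14 without animals 1, 3, 9 and 12. For Adamts18 in WT IP over input the value was 0.0127 with no filter, 0.0610 with limma-voom, 0.19 without animals 1, 3, 9 and 12 and -0.0594 to 0.11 over animals left out, and the Abi3bp interaction spanned -0.17 to 0.0848. With the animal as a replicate block, IP over input called 8906 genes in KO and 9319 in WT, against 8188 and 8585 without it, the interaction called 0, and Adamts18 in WT IP over input was 0.00847. The block changed no other call or sign of a member. Adamts18, with 2 to 6 reads per KO IP library, is the member that depth limits most.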
